A study of Mus musculus with 12 samples.

Results

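The potassium and HCN channel genes are the rows whose symbol starts with Kcn or Hcn followed by a lower-case letter or a digit, without the antisense transcript Kcnq1ot1 and without rows annotated as pseudogenes. This rule took 98 of the 22609 genes counted in sensory neuronal fractions of naive C57BL mice, as the labels give the strain, or C57BL/6J in the study's methods. It used names only, not measured values. The fractions were prepared from dissociated trigeminal ganglia (TG) or lumbar dorsal root ganglia (DRG) over Percoll, a medium in which cells band at their own density. With both sexes and both ganglia there were 4 groups of 3 libraries, so that each ganglion had 6 libraries. All mice were wild type and untreated, and were 3 to 4 months old per the labels. The females were in the estrous phase per the study's methods, which give a younger age. How many mice went into a library, and whether a TG and a DRG library of the same number came from the same mice, is not given in the sources used here. The p-values therefore measure the spread between these libraries, which may in part be technical.

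Potassium channels let potassium leave the cell, which repolarizes the membrane after an action potential and holds the resting potential. Voltage-gated Kv channels are tetramers of pore-forming alpha subunits, joined by modifier subunits that form no working channel alone and by cytoplasmic or membrane-spanning auxiliary subunits. KCNQ channels carry the slow M current that restrains repetitive firing, BK and SK channels open on calcium, two-pore channels carry leak current, inward rectifiers set the resting potential of glia and of many neurons, and HCN channels pass the hyperpolarization-activated inward current. TG neurons serve the head and lumbar DRG neurons serve the hind limb and trunk, and both hold nociceptors, mechanoreceptors and thermoreceptors.

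The libraries held between 7511765 and 15396090 reads in genes, and the channel genes took between 0.333% and 0.583% of them. Counts were scaled by TMM factors and are given as CPM, the count of a gene relative to the scaled total of its library. A floor of 3 counts was worth between 0.207 and 0.357 CPM. Female DRG 1, the shallowest library, had 28 of the channel genes at 0 counts, where the others had 11 to 23. By chi-square the library numbered 3 stood apart from the other 2 in every group. The chi-square per degree of freedom was 51.5 to 106 in pairs with it and 13.5 to 31.2 in pairs without it. By correlation of log2 CPM this did not hold in female DRG. Library 1 there correlated at 0.847 and 0.836 with libraries 2 and 3, which correlated at 0.893 with each other. Every counted gene of the marker lists for neurons, satellite glia, Schwann cells, fibroblasts, vessels and macrophages was detected in at least 1 library. Of the 8 listed Schwann genes, 7 were counted. Their sum ran from 2458 to 3634 CPM in TG and from 2673 to 3718 CPM in DRG. The fractions thus held RNA of other cells too. In bulk RNA, fewer cells of a type and less RNA per cell cannot be told apart.

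Of the 7 genes that differed between TG and DRG, 3 had an entry in the RefSeq promoter table. Their sequence upstream of the transcription start is shown because these genes moved in both directions: Kcnh5 and Kcng4 were higher in TG and Kcnmb1 was higher in DRG. Each run holds the 250 bases before the start, 5′ to 3′ on the strand of the gene, placed on mm9 by exact match at chr12:76278320-76278569 (minus strand), chr8:122159581-122159830 (minus strand) and chr11:33862763-33863012 (plus strand). Capitals mark a match to one of 4 motifs searched on both strands. The core-promoter element searched was TATAAA. The GC box was searched as GGGCGG, and the homeodomain core as TAATTA. An E-box of the form CAGCTG was the remaining motif.
Kcnh5: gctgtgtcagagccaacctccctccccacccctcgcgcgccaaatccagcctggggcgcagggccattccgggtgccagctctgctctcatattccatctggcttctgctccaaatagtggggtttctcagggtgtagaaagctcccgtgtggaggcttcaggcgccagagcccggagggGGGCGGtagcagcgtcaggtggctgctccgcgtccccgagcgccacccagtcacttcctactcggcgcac
Kcng4: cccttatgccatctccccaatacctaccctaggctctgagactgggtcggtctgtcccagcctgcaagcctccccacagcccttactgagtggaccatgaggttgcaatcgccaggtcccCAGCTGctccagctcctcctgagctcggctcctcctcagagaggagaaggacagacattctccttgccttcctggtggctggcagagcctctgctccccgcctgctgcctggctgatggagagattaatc
Kcnmb1: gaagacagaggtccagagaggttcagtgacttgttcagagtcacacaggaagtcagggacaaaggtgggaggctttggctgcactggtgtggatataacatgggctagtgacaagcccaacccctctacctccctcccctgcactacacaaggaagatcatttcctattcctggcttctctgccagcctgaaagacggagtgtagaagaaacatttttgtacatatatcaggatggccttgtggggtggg
The Kcnh5 run was rich in CpG, with 16 CpG and 65.6% GC, and its GC box started 70 bases before the transcription start. Kcng4 had 4 CpG, 60.4% GC and a CAGCTG E-box 130 bases before the start. Kcnmb1 had 1 CpG, 50.8% GC and none of the 4 motifs. Over windows of the same length, GGGCGG stood in 45.8% of 96 promoters of 71 channel genes and in 32.7% of all 32851 promoters. The E-box stood in 22.9% and 13% of them. TATAAA stood in 3.12% and 12.4%, and TAATTA in 0 of the 96 and in 4.84% of all. The channel promoters had medians of 58.8% GC and 7.5 CpG, beside 52.4% and 6 for all promoters. The part of base composition in these shares was not tested. A match is a description of these letters and not a binding site.

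The main comparison set the 6 TG libraries against the 6 DRG libraries. Of the 98 channel genes, 86 had enough counts to be tested, and 7 differed between the ganglia at an adjusted p under 0.05 by edgeR's quasi-likelihood test. This was 8.14% of the tested channel genes, beside 0.964% of all 14829 genes tested. Higher in TG were 5 genes, among them Kcng4, Kcnh5, Kcnq3 and Kcna1, where the background in this direction was 0.627%. Higher in DRG were Kcnv1 and Kcnmb1, where the background was 0.337%. Of the 7, 6 differed by more than 2-fold, a size that 0.769% of all genes reached. At an unadjusted p under 0.05 there were 32 channel genes, 20 higher in TG and 12 higher in DRG, or 37.2% beside 8.83% of all genes. The median log2 fold change was -0.07 over the tested channel genes and -0.01 over all genes, and 41 of the 86 were above 0.

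**Figure D1:**
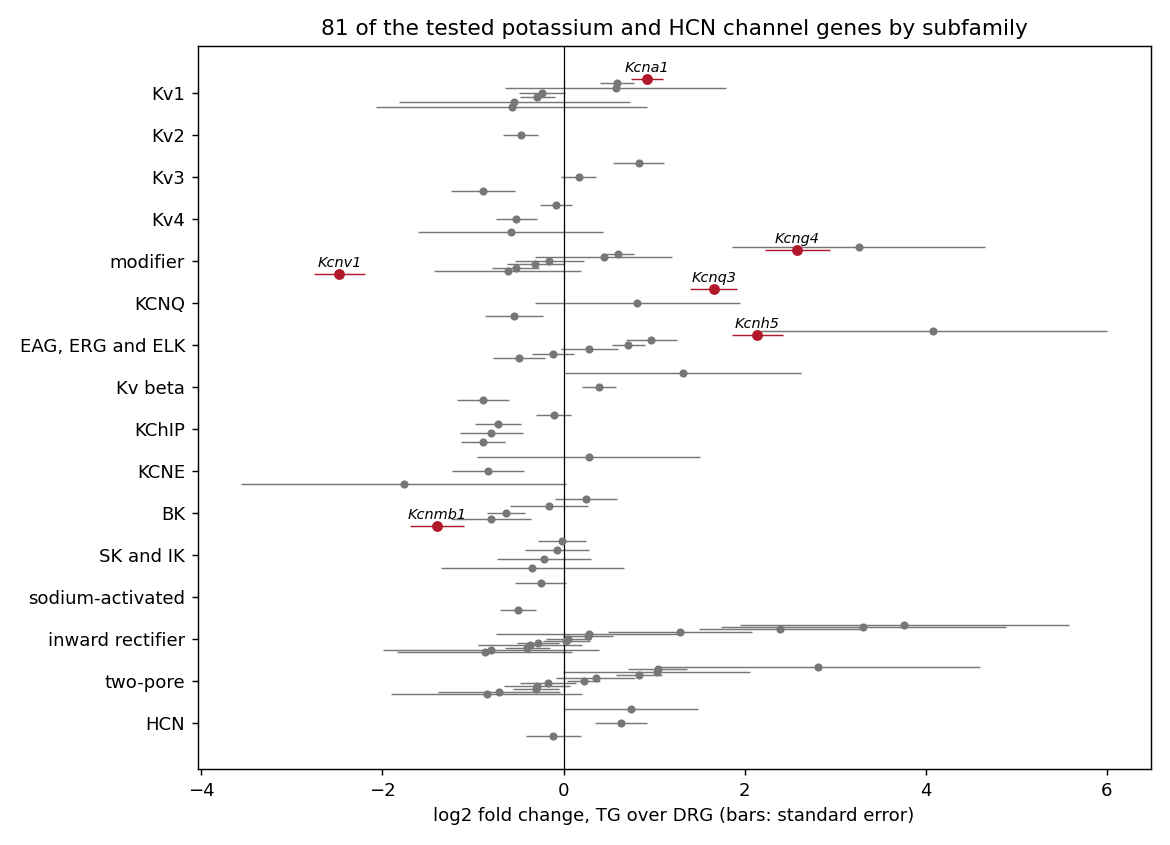
Log2 fold change of TG over DRG (x axis) for 81 of the 86 tested channel genes, in lines by subfamily. Points are fitted values, bars are standard errors, and red points have an adjusted p under 0.05, with 4 drawn to the right of 0 (higher in TG) and 2 to the left.

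The library values showed the same separation without a model. For 10 of the 86 genes no TG library overlapped a DRG library, 11.6% beside 1.36% of all genes. Higher in TG in this sense were 9 genes, among them Kcnq3, Kcnh5, Kcnh1, Kcng4, Kcna1 and Kcnj4, with a background of 0.998%. Kcnv1 was the 1 gene with every DRG library above every TG library, with a background of 0.364%.

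**Figure D2:**
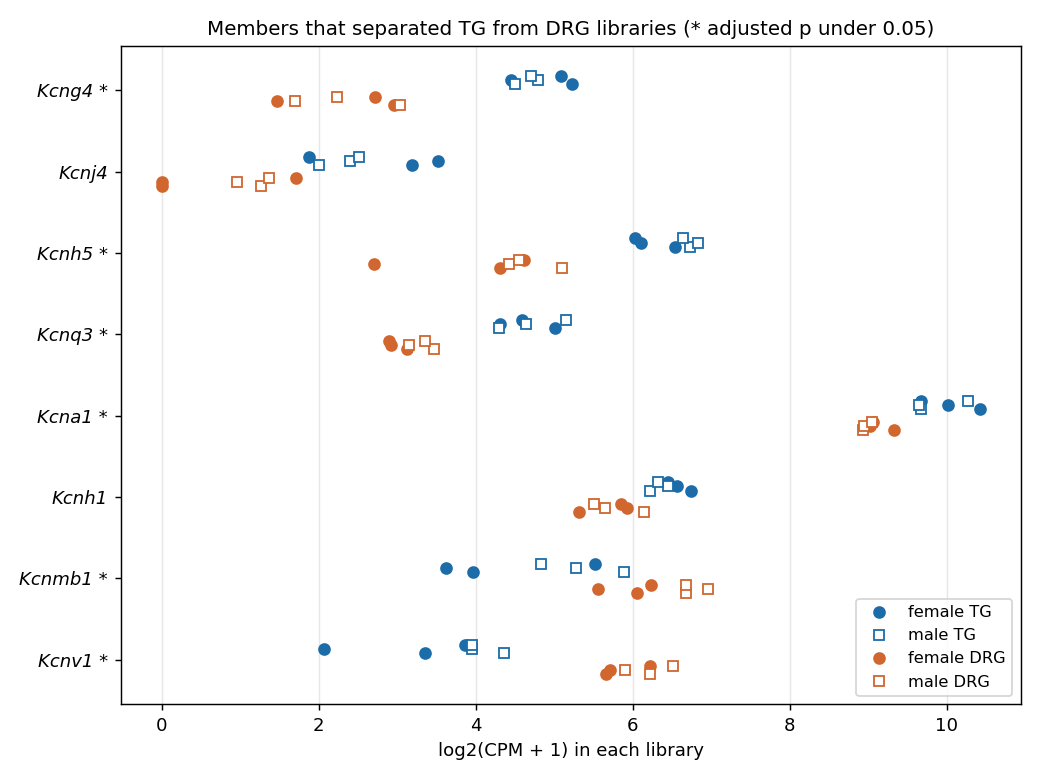
Level of 8 channel genes in each of the 12 libraries as log2(CPM + 1), with circles for females, squares for males, blue for TG and orange for DRG. Asterisks mark the 6 genes drawn that had an adjusted p under 0.05, and in every gene drawn but Kcnmb1 the blue and orange points do not overlap.

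Kcnq3 (ENSMUSG00000056258.7, chr15:65826733-66117786 on mm9, the build of all positions given), one of the subunits of the neuronal M channel, ran from a lowest value of 18.7 through a median of 23.5 to a highest of 34.7 CPM in TG and from 6.43 through 7.80 to 10.1 CPM in DRG. Its 6 TG libraries were all above its 6 DRG libraries, with a log2 fold change of 1.66 (SE 0.26), 3.16-fold, and an edgeR adjusted p of 0.00186. Kcnq5 stood at 7.65 to 16.1 CPM in TG and 10.1 to 26.0 CPM in DRG, with a log2 difference of -0.55 (SE 0.32). Kcnq1, known from heart and epithelia, did not exceed 5.83 CPM in any library.

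The EAG, ERG and ELK genes encode voltage-gated channels of the ether-à-go-go family, and 1 of their 7 tested members passed in edgeR, where DESeq2 called Kcnh1 as well. Kcnh5 (ENSMUSG00000034402.2, chr12:75998204-76278319), an EAG subunit, had 64.6, 95.4 and 113 CPM in TG and 5.51, 21.5 and 33.2 CPM in DRG, given, as for the genes that follow, as the lowest, median and highest of 6 libraries. Every TG library was above every DRG library, and the lowest value was that of female DRG 2. The log2 fold change was 2.14 (SE 0.28), or 4.41-fold, with an edgeR adjusted p of 0.000323. Its nearest relative Kcnh1 had 73.4, 86.3 and 106 CPM in TG and 39.0, 52.8 and 69.9 CPM in DRG, also without overlap. The log2 difference of Kcnh1 was 0.71 (SE 0.18) with an edgeR adjusted p of 0.0783. Kcnh8, an ELK subunit, had a log2 difference of 0.97 (SE 0.28) and an edgeR adjusted p of 0.148. The ERG genes Kcnh2, Kcnh6 and Kcnh7 had log2 differences of 0.29, -0.49 and -0.11, each under 2 standard errors, and their library ranges overlapped. Per kilobase, the 8 genes together reached 54.9 to 77.8 CPM in TG and 33.2 to 50.02 CPM in DRG, with Kcnh5 as the highest member by median over the 12 libraries and in TG, though not in DRG.

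The modifier subunits, which join Kv2 channels and change their gating, held 1 called gene in each direction. Kcng4 (ENSMUSG00000045246.5, chr8:122147754-122159580) had 20.9, 26.0 and 36.6 CPM in TG and 1.78, 4.65 and 7.19 CPM in DRG, so that no library overlapped. The log2 fold change was 2.58 (SE 0.36), or 5.99-fold, with an edgeR adjusted p of 0.000634. Kcnv1 (ENSMUSG00000022342.5, chr15:44937830-44946480) had 3.21, 14.0 and 19.5 CPM in TG and 49.8, 66.1 and 90.7 CPM in DRG. All 6 TG libraries were below all 6 DRG libraries, with a log2 fold change of -2.48 (SE 0.28), 5.56-fold higher in DRG, and an edgeR adjusted p of 0.000103. Of the 9 tested modifier genes these were the 2 that passed in edgeR, and DESeq2 called Kcns3 as well. Kcns3, the modifier with the highest level per kilobase, had 113, 161 and 251 CPM in TG and 57.4, 113 and 172 CPM in DRG, with a log2 difference of 0.60 (SE 0.18) and an edgeR adjusted p of 0.156. Kcng3 was at 10.2 to 32.8 CPM in TG and 25.1 to 41.5 in DRG, and Kcns1 at 7.88 to 25.9 and 9.78 to 23.1 CPM. The remaining tested modifiers Kcng1, Kcng2, Kcns2 and Kcnf1 had medians of at most 7.13 CPM in both ganglia. The summed level of the modifier genes had a median of 80.7 CPM per kilobase in TG and of 81.2 in DRG.

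Kcnb2, a Kv2 alpha subunit that these modifiers join, did not pass. It had 97.5, 111 and 147 CPM in TG and 112, 167 and 211 CPM in DRG, with a log2 difference of -0.47 (SE 0.19) and an edgeR adjusted p of 0.445.

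The Kv1 subfamily, which holds the low-threshold channels found beside the nodes of Ranvier, had 1 of 7 tested members pass in edgeR and in DESeq2. Kcna1 (ENSMUSG00000047976.3, chr6:126586481-126595819) had 803, 925 and 1369 CPM in TG and 488, 523 and 642 CPM in DRG. The libraries did not overlap, and the highest DRG value was that of female DRG 1, with the next at 531 CPM. The log2 fold change was 0.92 (SE 0.18), or 1.90-fold, with an edgeR adjusted p of 0.0132. The call was lost without female DRG 2, without female TG 1 or without male DRG 2, where the highest adjusted p was 0.0635. Kcna2, its partner in axonal channels, had 303, 374 and 527 CPM in TG and 202, 237 and 321 CPM in DRG, with a log2 difference of 0.59 (SE 0.19) and an edgeR adjusted p of 0.207. Kcna6 and Kcna4 had log2 differences of -0.29 and -0.24 and overlapping libraries. Kcna3, Kcna5 and Kcna10 had medians of at most 2.004 CPM. Per kilobase, Kv1 genes made 28.7% of the summed level of all channel genes in TG and 22.1% in DRG, as the medians over libraries. The Kv beta genes, whose proteins attach to Kv1 channels, had log2 differences of 0.39 (SE 0.19) for Kcnab2 and -0.89 (SE 0.29) for Kcnab1, with edgeR adjusted p of 0.565 and 0.228.

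None of the Kv3 and Kv4 alpha subunits and none of the 4 KChIP genes, whose calcium-binding proteins attach to Kv4 channels, passed the adjusted threshold in edgeR. Of the 11 tested genes of these subfamilies, 7 had an unadjusted p under 0.05 in edgeR, beside 8.83% of all genes. DESeq2 called Kcnip2. Kcnip2 had 20.8, 36.6 and 41.0 CPM in TG and 29.4, 65.5 and 73.7 CPM in DRG, a log2 difference of -0.89 (SE 0.24) with an edgeR adjusted p of 0.111. All 4 KChIP genes had log2 differences under 0, with a median of -0.76, and 3 of them had an unadjusted p under 0.05. Kcnip4, the highest of them per kilobase, ranged from 51.4 to 161 CPM in TG and from 89.4 to 360 CPM in DRG. The Kv4 genes Kcnd1 and Kcnd3, which carry the fast A current, had log2 differences of -0.08 (SE 0.17) and -0.52 (SE 0.22). Among the Kv3 genes, which support fast spiking, Kcnc4 had a log2 difference of 0.83 (SE 0.28) and Kcnc1 one of -0.89 (SE 0.36). Kcnc2, with 44.3 to 54.3 CPM in TG and 31.0 to 54.9 CPM in DRG, had a log2 difference of 0.17 (SE 0.19).

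Of the calcium-activated channels, the BK auxiliary subunit Kcnmb1 passed. Kcnmb1 (ENSMUSG00000020155.2, chr11:33863013-33873641), the beta subunit best known from smooth muscle, had 11.3, 32.7 and 58.4 CPM in TG and 46.3, 88.0 and 123 CPM in DRG. Of the TG libraries 5 were below the lowest DRG library. The log2 fold change was -1.39 (SE 0.30), 2.63-fold higher in DRG, with an edgeR adjusted p of 0.0263. This call was lost when any 1 of 6 libraries was left out, namely female TG 1, female TG 2, male DRG 1, male DRG 2, male TG 2 or male TG 3, with an adjusted p of up to 0.0913. The summed markers of mural cells, the smooth muscle and pericytes of vessels, ran from 222 to 475 CPM in TG and from 232 to 667 CPM in DRG, with 0 of 7 called and none at 0. Their part in the Kcnmb1 result was not tested. Kcnmb1 lies on the opposite strand inside the span of Kcnip1 and shares no exon base with it. Kcnma1, the BK pore subunit, had 20.8, 30.6 and 35.2 CPM in TG and 35.0, 48.0 and 53.0 CPM in DRG, which touched at 1 pair of libraries, with a log2 difference of -0.64 (SE 0.21) and an edgeR adjusted p of 0.239. Kcnmb2 and Kcnmb4, the other detected beta subunits, had log2 differences of 0.25 and -0.16. The SK and IK genes Kcnn1 to Kcnn4 had log2 differences between -0.35 and -0.02, and none had an unadjusted p under 0.05. Kcnt1, the main sodium-activated channel, had 41.1 to 99.8 CPM in TG and 55.5 to 150 CPM in DRG, with a log2 difference of -0.50 (SE 0.20) and an edgeR adjusted p of 0.418.

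Hcn2, Hcn3 and Hcn4 did not pass the adjusted threshold in edgeR or in DESeq2. Hcn2, a cAMP-sensitive subunit linked to inflammatory pain, had 24.9, 40.0 and 92.2 CPM in TG and 15.4, 35.6 and 42.2 CPM in DRG, with a log2 difference of 0.63 (SE 0.29) and an edgeR adjusted p of 0.537. The 2 highest Hcn2 values were those of female TG 1 and 2. Hcn3 and Hcn4 had log2 differences of -0.11 (SE 0.30) and 0.75 (SE 0.74).

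None of the 24 tested two-pore and inward rectifier genes passed the adjusted threshold in edgeR or in DESeq2. An unadjusted p under 0.05 in edgeR was reached by 3 of the 24, beside 8.83% of all genes. Kcnk18, the leak channel TRESK that is linked to migraine, had 6.49, 14.9 and 23.0 CPM in TG and 3.27, 5.92 and 14.9 CPM in DRG. Its log2 difference was 1.04 (SE 0.33), with an edgeR adjusted p of 0.2003. Kcnk2, a mechanically and thermally gated leak channel, had 23.2, 30.4 and 44.2 CPM in TG and 12.8, 17.2 and 35.8 CPM in DRG. The highest of these DRG values was that of female DRG 1, the next being 19.4 CPM, and the log2 difference was 0.83 (SE 0.25) with an edgeR adjusted p of 0.177. Kcnk1, the two-pore gene with the highest level per kilobase, had a log2 difference of 0.22 (SE 0.18), and Kcnk10 and Kcnk4, other members of the mechanically gated group, had differences of -0.30 (SE 0.26) and 1.03 (SE 1.03). Kcnj10, the potassium-buffering inward rectifier of satellite glia, had medians of 186 CPM in TG and 191 CPM in DRG, and a log2 difference of 0.05 (SE 0.25). The summed satellite glia markers, without Kcnj10, ran from 3699 to 6310 CPM in TG and from 2406 to 5441 CPM in DRG. Kcnj8, the pore of vascular ATP-sensitive channels, was at 0.364 to 8.91 CPM in TG and 3.22 to 7.82 CPM in DRG. Kcnj4 was low but separated, with 2.68, 4.498 and 10.4 CPM in TG and 0, 1.17 and 2.29 CPM in DRG, and an edgeR adjusted p of 0.353.

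Some genes of the neuron marker lists were also called between the ganglia, where the share of all genes was 0.964%. The summed markers of cold-sensing neurons ran from 273 to 505 CPM in TG and from 71.2 to 112 CPM in DRG. Of these 4 genes 1, Trpm8, was called, higher in TG, and it alone ran from 239 to 462 and from 47.0 to 70.8 CPM. Foxp2 and Cdh8 had log2 differences of 0.33 (SE 0.43) and 0.39 (SE 0.23). Penk went the other way, at -2.61 (SE 1.17), with no library above 8.44 CPM. The summed peptidergic nociceptor markers ran from 1208 to 3210 CPM in TG and from 2166 to 4908 CPM in DRG, with 2 of 6 called, both higher in DRG. The non-peptidergic markers ran from 631 to 938 and from 834 to 1352 CPM, with 2 of 6 called higher in DRG, and those of C low-threshold mechanoreceptors from 125 to 308 and from 243 to 429 CPM, with 1 of 4 called higher in DRG. Myelinated neuron markers ran from 2358 to 3024 and from 2152 to 3422 CPM with 0 of 8 called, and pan-neuronal markers from 3741 to 6547 and from 3900 to 7854 CPM with 0 of 10 called. No counted gene of these lists was at 0 in all libraries. The part of these markers in the channel results was not tested.

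Each of the 7 differences pointed the same way in females and in males. In females the log2 fold changes included 2.69 for Kcng4, 2.24 for Kcnh5, 1.83 for Kcnq3, 0.94 for Kcna1, -2.74 for Kcnv1 and -1.40 for Kcnmb1. In males they were 2.48, 2.06, 1.502, 0.92, -2.21 and -1.39 in the same order. With the 6 female libraries alone none of the 7 was called, in a fit that called 0.0358% of all genes, and with the 6 male libraries alone 4 were called, among them Kcng4, Kcnh5 and Kcnv1, beside 0.414% of all genes. All 7 remained called without the 4 libraries numbered 3, where edgeR called 18 channel genes and 5.47% of all genes.

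Genes that work with these channels but carry other names were followed as a list of 31 in the files, of which 28 were tested. It holds auxiliary subunits, channel-clustering scaffolds and the LGI and ADAM proteins that organize Kv1 channels on axons. By edgeR 3 of the 28 were called, beside 0.964% of all genes. All 3 were higher in TG, where the background was 0.627%. Lgi2 had a log2 fold change of 2.12 (SE 0.24) and Adam23, an LGI receptor, one of 1.197 (SE 0.17). Dlg2, a scaffold that clusters Kv1 channels, had one of 0.90 (SE 0.18). Lgi2 had 90.8, 118 and 156 CPM in TG and 16.2, 29.5 and 39.7 CPM in DRG. Neither Lgi2 nor the other called partners overlapped between ganglia, a separation that 1.36% of all genes showed. Their adjusted p were 9.37e-05, 0.000731 and 0.0177 by edgeR. Lgi3 had a log2 difference of 0.78 (SE 0.21) with an edgeR adjusted p of 0.102. The Kv4 partners Dpp6 and Dpp10, the Kv2 partner Amigo1 and the HCN partner Pex5l had differences between -0.53 and 0.32 and were not called. Lgi1 and Adam22, the closest relatives of the called pair, had log2 differences of -0.09 (SE 0.45) and 0.19 (SE 0.20).

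Levels of different genes were compared per kilobase of exon. The most abundant channel genes over the 12 libraries were Kcna2 with a median of 91.7 CPM per kilobase (58.4 to 152) and Kcna1 with 80.6 (54.5 to 153), whose ranges overlapped. Among the next were Kcnk1, Kcnab2, Kcnip4, Kcns3, Kcnj10, Kcnb2 and Kcna6, with medians from 47.4 down to 31.9 CPM per kilobase and overlapping ranges. Some subfamilies had a clear first member. Kcnk1 was above the other two-pore genes, Kcnj10 above the other inward rectifiers, Kcns3 above the other modifiers and Kcnt1 above Kcnt2, in each case with no overlap of the ranges over the 12 libraries between the first and the second in rank. Kcnh5, first of its subfamily over all libraries, was above Kcnh1 in the 6 TG libraries by median, 23.5 against 11.8 CPM per kilobase, and below it in DRG, 5.29 against 7.21.

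**Figure D3:**
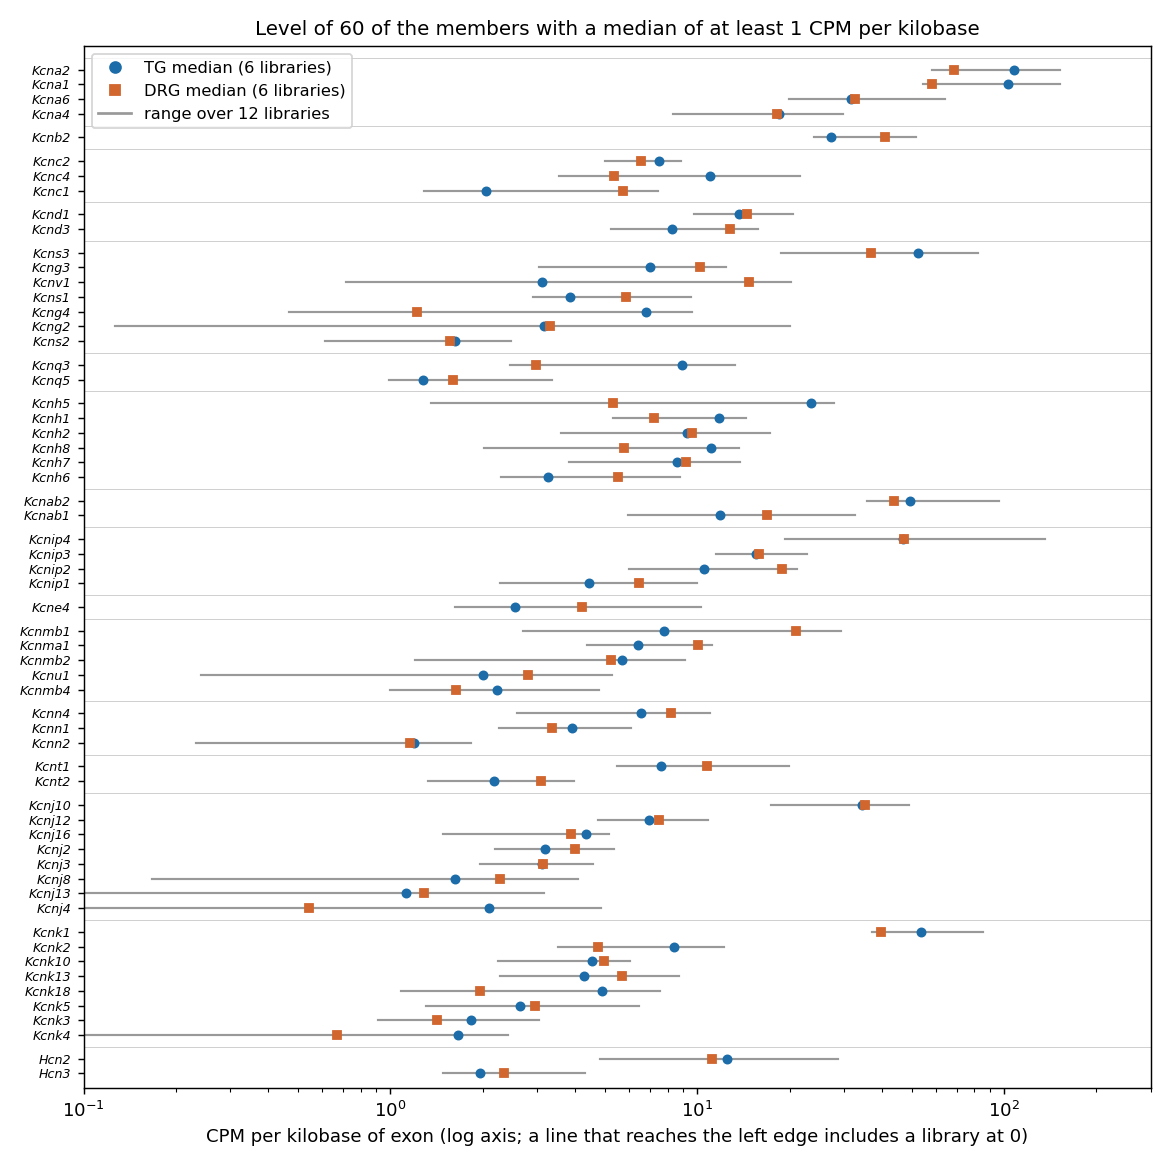
Level of 60 of the channel genes with a median of at least 1 CPM per kilobase of exon, on a log axis, in lines by subfamily. Circles and squares are the TG and DRG medians of 6 libraries each, and grey lines span the 12 libraries. Kcna2 and Kcna1 lie furthest right, and Kcnv1, Kcng4, Kcnh5 and Kcnj4 have the widest spacing between circle and square.

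In all, 33 genes were below 1 CPM per kilobase in median. Kcnmb3, Kcne1, Kcna7, Kcnj1, Kcnj5, Kcnv2 and Kcnk15 had 0 counts in all 12 libraries, which sets a limit of 3 counts per library and does not show absence. Kcnh4, Kcne2, Kcnrg, Kcnk16 and Kcnk7 were the other 5 that were not tested for low counts, and of these Kcnrg reached 3.19 CPM in 1 library. Among the KCNE genes, small membrane-spanning auxiliary subunits, Kcne4 was the highest, with 4.02 to 10.8 CPM in TG and 5.50 to 25.6 CPM in DRG and a log2 difference of -0.83 (SE 0.39).

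The sexes were compared in each ganglion with its 6 libraries. In TG, none of 81 tested channel genes passed an adjusted p under 0.05 in edgeR, and among all 14009 genes, the sex-check genes left out, 0.00% did. DESeq2 called 3 channel genes and 5.8% of all genes at that threshold. At an unadjusted p under 0.05 there were 19, or 23.5% beside 20.7% of all genes. Of these 16 were higher in females and 3 in males, beside backgrounds of 10.9% and 9.79%. By the criteria of the study, a fold change above 2, an unadjusted p under 0.05 and here a mean above 1 CPM in the higher sex, 8 channel genes were female-selective and none male-selective. These were 9.88% of the 81, beside 7.37% of all genes, or 5.14% for the female and 2.23% for the male direction.

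Kcnc4, a Kv3 subunit, had the smallest p of these, with 52.1, 65.3 and 34.4 CPM in female TG 1 to 3 and 16.9, 16.2 and 31.6 CPM in the male libraries. The log2 fold change was 1.28 (SE 0.35), or 2.43-fold, with an edgeR adjusted p of 0.154. Hcn3 had 16.4, 17.9 and 9.30 CPM in females and 6.92, 6.15 and 6.48 CPM in males. Its log2 fold change was 1.21 (SE 0.38), with an edgeR adjusted p of 0.159. Hcn3 shares 711 bases of exon, 17.12% of its length, with Pklr on the opposite strand, and the strand setting of the counting is not given in the sources used here. For Kcnc4 and Hcn3 the female values did not overlap the male values, but female TG 3 lay nearest to the males. The share of all genes whose sexes did not overlap in TG was not counted. Hcn2, at 92.2, 88.0 and 34.3 CPM in females and 24.9, 45.0 and 35.0 CPM in males, overlapped through female TG 3. Kcnk18 had log2 fold change 1.05 (SE 0.37), Kcnq1 2.09 (SE 0.83), Hcn4 1.56 (SE 0.65) and Kcna3 3.31 (SE 1.504), the last 3 at 12.05 CPM or less in every TG library. The edgeR adjusted p of these 5 ran from 0.175 to 0.241.

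Reads outside genes made up 43.5% to 49.1% of the reads in and outside genes in female TG libraries and 37.6% to 47.9% in male ones. The summed peptidergic nociceptor markers ran from 1208 to 2075 CPM in female TG and from 1723 to 3210 CPM in male TG, and fibroblast markers from 1030 to 1676 and from 618 to 1405 CPM. Their part in the TG differences was not tested. The number of calls changed with the libraries and with a correction for base composition. Without female TG 3 the study's criteria took 22 channel genes, beside 17.6% of all genes, and without the libraries numbered 3 they took 25, beside 24.6%. In a fit with offsets for GC content and length, 2 channel genes met the criteria, beside 2.26% of all genes, and none of the 8 was among them, and the log2 fold change of Kcnc4 was 0.74, of Hcn3 0.51 and of Hcn2 0.44. The median log2 fold change of the channel genes was 0.26 without the offsets, where that of all genes was 0.05, and 0.05 with them, where that of all genes was 0.03.

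In DRG, none of 77 tested channel genes met the study's criteria, beside 4.93% of all 13963 genes, 2.01% higher in females and 2.93% higher in males. None passed an adjusted p under 0.05 in edgeR, beside 0.00%. DESeq2 called 1, and 2.47% of all genes. Reads outside genes were 46.4% to 50.4% in female DRG libraries and 38.2% to 42.6% in male ones, whose part in the differences was not tested. At an unadjusted p under 0.05 there were 5, or 6.49% beside 11.8% of all genes: Kcns3, Kcnmb1 and Kcnk1 higher in males, where the background was 8.0%, and Kcna6 and Kcnt1 higher in females, where it was 3.85%. Kcns3 had 87.3, 57.3 and 98.0 CPM in female DRG 1 to 3 and 172, 155 and 128 CPM in the male libraries, with a log2 fold change of -0.90 (SE 0.29) and an edgeR adjusted p of 0.312. Kcnmb1 had 65.3, 46.3 and 74.6 CPM in females and 101, 123 and 102 CPM in males. The fitted difference was -0.80 (SE 0.28) on the log2 scale, with an edgeR adjusted p of 0.328. In both genes the sexes did not overlap, a separation whose share among all genes was not counted.

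In TG, 4 of these 5 also had an unadjusted p under 0.05 and the same sign. In TG alone 20.7% of all genes reached that p in either direction. The share of all genes that reached it with the same sign in both ganglia was not counted, so no background stands beside these 4. The log2 fold changes in TG and DRG were -0.76 and -0.90 for Kcns3, 0.75 and 0.74 for Kcna6, 0.86 and 0.69 for Kcnt1 and -0.63 and -0.65 for Kcnk1. Kcns3 had 134, 113 and 135 CPM in the female TG libraries and 230, 251 and 186 CPM in the male ones, so that the sexes did not overlap in either ganglion. Kcnt1, at 81.4, 99.8 and 59.8 CPM in female TG and 41.1, 41.2 and 54.9 CPM in male TG, did not overlap either. How many of all genes separated the sexes in this way was not counted. Kcna6 overlapped in TG through male TG 3, at 194 CPM beside 183 CPM in female TG 3, and 39.49% of its exon bases are shared with a transcript on the opposite strand. With the GC and length offsets the TG difference was -0.56 for Kcns3, 0.13 for Kcnt1, 0.33 for Kcna6 and -0.62 for Kcnk1. The DRG difference with these offsets was -0.69, 0.30, 0.53 and -0.37 in the same order.

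**Figure D4:**
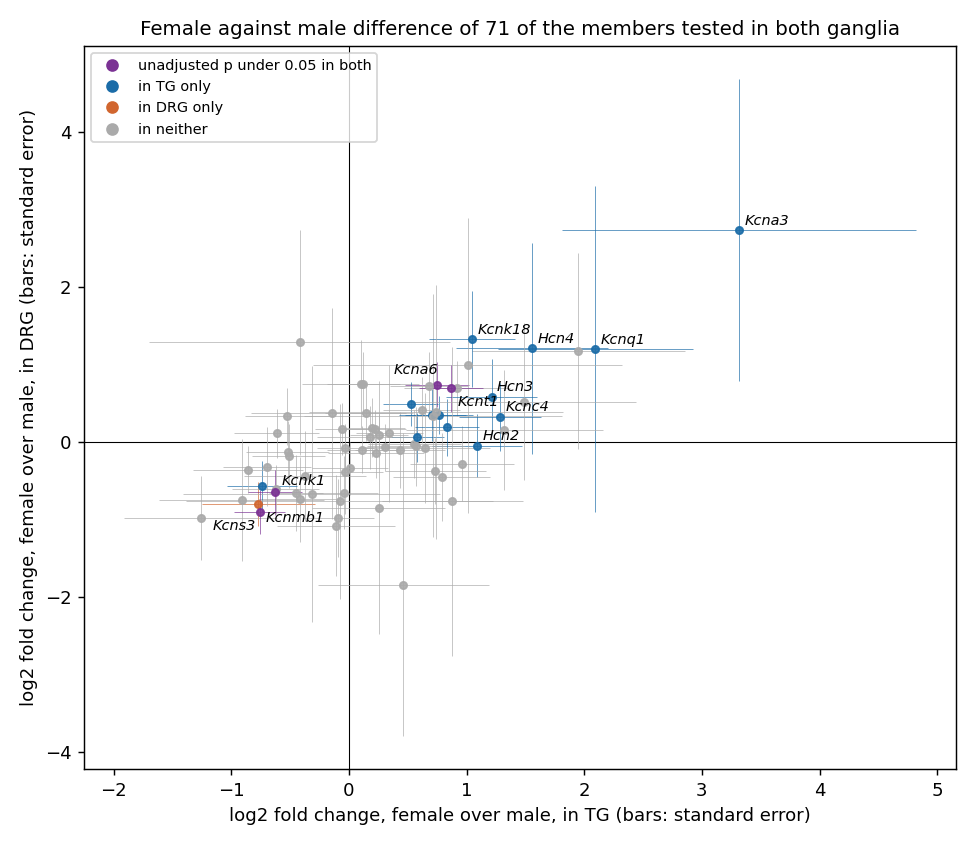
Log2 fold change of females over males in TG (x axis) and in DRG (y axis) for 71 of the 76 channel genes tested in both, with standard errors as bars. Colours give the ganglion in which the unadjusted p was under 0.05. The 4 purple genes, Kcna6, Kcnt1, Kcns3 and Kcnk1, had it in both with the same sign, and the share of all genes was not counted.

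Whether the sex difference itself differed between TG and DRG was tested as an interaction over all 12 libraries. None of the 86 channel genes passed an adjusted p under 0.05 in edgeR, beside 0.00% of all genes, nor in DESeq2, and 2 had in edgeR an unadjusted p under 0.05, Kcng1 and Kcnj9, beside 1.97% of all genes. Both were at low counts, with no library above 3.78 CPM. The 8 genes called female-selective in TG and not in DRG are therefore not shown to differ between the ganglia in this respect. For Hcn2, whose log2 fold change was 1.09 (SE 0.38) in TG and -0.05 (SE 0.41) in DRG, the unadjusted p of the interaction in edgeR was 0.0747.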

How the data were processed

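RNA was sequenced from Percoll-enriched sensory neuronal fractions in 12 libraries, 4 groups of 3. The authors removed ribosomal RNA, made stranded libraries, aligned reads to mm9 with TopHat2 and counted them with HTSeq. The submitters' processing notes also name bcl2fastq. Tool versions, annotation and the strand setting of the counting are not given in the sources used here, and reads of overlapping genes or near-identical copies may be lost or misassigned. The deposited files hold raw counts per gene symbol with 5 summary lines, which were left out. The lines for reads outside genes held 37.6% to 50.4% of the reads in and outside genes. Positions and exon-union lengths came from the mm9 GENCODE annotation, which matched 95.9% of symbols and all 98 channel genes.

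Genes were kept by filterByExpr, scaled by TMM and tested with edgeR 4.0.16 (R 4.3.3, quasi-likelihood F-test, Benjamini-Hochberg adjustment over all genes tested), without a replicate block. TG against DRG and the interaction used 12 libraries with a mean for each group, and the sex comparisons used the 6 libraries of a ganglion. Positive log2 fold changes are higher in TG or in females. CPM stood in for the RPKM of the study's criteria, and DESeq2 1.42.0 for its DESeq. The scripts were tested on simulated data, and figures were drawn with matplotlib 3.10.9. Floors of 3 counts cover counting error only.

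The channel genes, the partner list, the marker lists and the tests were chosen with earlier results of these data known. Values by library are given for channel genes with an adjusted p under 0.05 in TG against DRG, the 4 with the smallest p per direction where fewer passed, the most abundant gene of each subfamily, the 3 strongest per direction that met the study's criteria in a ganglion, by p, and a list of channels known in sensory neurons, glia or vessels. Others were named after their values were seen, among them Kcnh1, Kcnh8, Kcnip2, Kcnj4 and Kcna6. Alternatives were DESeq2, other scalings and filters, the replicate block, GC and length offsets, each sex alone and libraries left out. A few channel genes are not reported here by name or drawn, and the counts include them.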

Additional observations from a re-analysis of the deposited data

Results flagged for a closer look

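In 6 of 86 sets of 6 libraries tested, 43 channel genes in each ganglion, 1 library stood past Dixon's limit of 0.625 for 6 values, the gap to the nearest library divided by the whole range. Chance passes this limit in about 1 of 20 sets. Female DRG 1 was that library for 4 genes. Its Kcna1 level was 642 CPM, with the nearest DRG library at 531 CPM. Its Kcna3 level was 9.39 CPM beside 1.35 CPM, its Kcnk2 level 35.8 CPM beside 19.4 CPM and its Kcnt1 level 150 CPM beside 89.3 CPM. Kcnn1, an SK channel, was at 24.6 CPM in female DRG 3, with the next DRG library at 14.97 CPM. Kcnrg, a regulator of potassium channel assembly, was at 3.19 CPM in male TG 1, with the next TG library at 1.08 CPM.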

How the results depend on the processing

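All 7 channel genes called between TG and DRG kept their direction in 24 of 24 alternatives. The 7 calls became 12 with DESeq2, 14 without female DRG 1 and female TG 3, 0 in females alone, 4 in males alone and 5 to 11 with 1 library left out. The share of all genes called, 0.964% as reported, moved with them, to 2.25%, 2.27%, 0.0358%, 0.414% and 0.506% to 1.52%. The 5 calls higher in TG became 9, 9, 0, 3 and 4 to 7, and the 2 higher in DRG became 3, 5, 0, 1 and 1 to 4. Without female TG 3 there were 11. The 3 partner calls became 6 without female DRG 1 and female TG 3, 0 in females alone and 2 to 5 with 1 library left out.

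The replicate block was not used because same-numbered TG and DRG libraries of a sex had deviations correlated at 0.0277 to 0.216, not above 0.1 in every pair, although 8 of 12 libraries correlated best with their own number. With the replicate block 23 channel genes were called, 14 higher in TG and 9 in DRG, and 7 partners, beside 3.79% of all genes. Among them were Kcna2, Kcnab1, Kcnb2, Kcnc1, Kcnc4, Kcnd3, Kcnip4 and Kcnk2. That these genes did not pass holds for the fit without the block. With the block and GC and length offsets there were 21, 11 and 10, and 7 partners, beside 3.5%. The 8 sex calls in TG became 3 with the block, beside 5.95% of all genes, and 1 with block and offsets, beside 2.08%. In DRG the 0 became 1 with block and offsets, beside 2.86%.

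Leaving out the libraries numbered 3 was chosen after seeing the data. It gave 18 calls between ganglia (13 higher in TG, 5 in DRG, beside 5.47% of all genes) and 6 partners. By the study's criteria it gave 25 sex calls in TG (7 higher in males) and 4 in DRG (2 higher in males). These stood beside 24.6% and 12.6% of all genes. At an adjusted p under 0.05 in edgeR there were 39 in TG and 4 in DRG, beside 44.1% and 10% of all genes.

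By the study's criteria, TG sex calls became 2 with GC and length offsets and 4 in a fit of all 12 libraries. With 1 library left out there were 3 to 22, of which 0 to 9 were higher in males. The share of all genes, sex-check genes included, was 2.26%, 5.68% and 4.07% to 17.6% in these fits. Female TG 3 gave the 22 and the 9. At an adjusted p under 0.05, DESeq2 called 3 and leaving out 1 library 0 to 25, beside up to 23.6% of all genes. DRG sex calls became 1 without TMM factors, 1 with DESeq2 (1 at an adjusted p under 0.05) and 2 with GC and length offsets. There were 2 with all 12 libraries (1 higher in males) and 0 to 4 with 1 library left out (0 to 3 higher in males). Of all genes, these fits took 5.36%, 5.47%, 3.3%, 5.85% and 2.61% to 11% by the study's criteria. For the sexes, leaving out female DRG 1 and female TG 3 is the same as leaving out 1 library. Without TMM factors the sex difference of all genes had a median of 0.16 (log2) in TG and 0.19 in DRG. The cause of these changes was not tested. With 3 libraries per group and under 1 CPM in many channel genes, small differences were not detectable.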
